A study of Mus musculus with 2 samples.

Results

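The transcription factor genes that build the gonad and set up its supporting cells were followed through the cell types of the mouse fetal ovary. The 10 members, Foxl2, Wt1, Nr5a1, Gata4, Gata6, Lhx9, Emx2, Runx1, Nr0b1 and Nr2f2, were taken by symbol from both count matrices, which list 27998 genes. Each genotype was 1 single-cell RNA library of ovary at E15.5 (E, embryonic day), from female embryos that carried the Pou5f1-EGFP (OCT4-GFP) germ cell transgene. The KO library pooled 2 embryos homozygous for a deletion of exon 3 of Nr3c1, the gene of the glucocorticoid receptor (GR), made by β-actin Cre on the floxed allele, so that the deletion was not limited to one cell type. The WT library pooled 4 embryos without the deletion. GFP+ germ cells were sorted and put together with somatic cells at 60 to 40, so shares of cell types were set by the mix as well as by the tissue. With 1 library per genotype, the genotype, the embryo pool, the sort and the capture cannot be told apart, no difference has a replicate check, no p-value is given, and each range printed in parentheses after a value is a 95% interval for counting error only.

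These genes act early and together. Wt1 (a zinc finger factor), Nr5a1 (the nuclear receptor SF1), Lhx9 and Emx2 (homeodomain factors) and the zinc finger factors Gata4 and Gata6 are known for the formation and growth of the genital ridge. Foxl2 and Runx1 are known for keeping supporting cells on the ovarian path, as the pregranulosa cells that later surround each oocyte. Nr0b1 (DAX1) is a repressor of Nr5a1 activity, and Nr2f2 (COUP-TFII) is a nuclear receptor of mesenchyme and vessels.

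Promoter windows from RefSeq on build GRCm38.p6 are shown for the members on which the results below turn. Lhx9 separated the pregranulosa-like clusters. Nr0b1 was the member past the size limit between the libraries in a main cell class, the stroma-like cells, by a call that was lost under other settings. Emx2, as GENCODE draws it, shares its start with an antisense gene that differed between the libraries. Each window runs 5′ to 3′ on the strand of the gene, from 250 bases before to 50 bases after a RefSeq start, and 6 of the 10 members had a window that was read. In Lhx9 (chr1:138842395-138842694, minus strand, inside the gene as GENCODE draws it) and Nr0b1 (chrX:86191525-86191824, plus strand), capitals mark matches on either strand to the cores GATAA (GATA factors), AGGTCA (nuclear receptors), TGTGGT (RUNX factors) and TAATTA (homeodomain factors). In Emx2 (chr19:59458440-59458739, plus strand, also inside the gene as GENCODE draws it), capitals mark the 196 bases that also lie within the antisense gene Emx2os. These bases lie before the RefSeq start used for the window.
Lhx9: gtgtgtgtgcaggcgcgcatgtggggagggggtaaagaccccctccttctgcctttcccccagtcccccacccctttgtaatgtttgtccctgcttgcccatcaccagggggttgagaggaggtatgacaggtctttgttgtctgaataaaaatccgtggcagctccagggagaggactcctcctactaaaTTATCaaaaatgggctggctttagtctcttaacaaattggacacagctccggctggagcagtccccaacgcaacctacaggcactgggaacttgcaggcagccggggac
Nr0b1: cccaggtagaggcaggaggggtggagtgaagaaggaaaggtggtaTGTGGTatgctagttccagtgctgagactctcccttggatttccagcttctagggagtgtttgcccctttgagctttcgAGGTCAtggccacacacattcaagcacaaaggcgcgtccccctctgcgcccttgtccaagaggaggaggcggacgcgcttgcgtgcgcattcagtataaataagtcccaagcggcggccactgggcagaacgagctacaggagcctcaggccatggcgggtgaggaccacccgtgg
Emx2: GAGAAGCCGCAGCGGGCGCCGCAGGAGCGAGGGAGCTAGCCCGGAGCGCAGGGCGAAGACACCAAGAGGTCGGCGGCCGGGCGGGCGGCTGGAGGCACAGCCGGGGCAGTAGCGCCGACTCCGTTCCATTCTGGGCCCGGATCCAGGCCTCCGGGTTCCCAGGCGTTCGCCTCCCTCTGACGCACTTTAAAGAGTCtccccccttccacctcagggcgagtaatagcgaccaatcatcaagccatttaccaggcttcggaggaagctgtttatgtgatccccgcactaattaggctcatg

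The Lhx9 window held 1 match to GATAA, which 25.4% of 32851 promoter windows hold. The Nr0b1 window held 1 match to AGGTCA and 1 to TGTGGT, against 16.3% and 16.8% of all windows. The Emx2 window held 1 match to TAATTA, outside the stretch shared with Emx2os, against 5.29% of all windows. None of the 4 cores was found in the windows of Foxl2 and Nr2f2, and 1 of the 2 windows of Runx1 held TGTGGT, with 2 matches. A match to so short a core is a description of the letters, not a binding site.

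After the limits that the study set on cells, 9046 WT cells with a median of 15687.5 unique molecular identifiers (UMIs, each a captured transcript) and 15502 KO cells with a median of 10194.5 were kept, and 75 barcodes occurred in both libraries. The cells were clustered without the members and named from markers that hold no member. The pregranulosa-, epithelia- and stroma-like classes, the 3 main somatic classes, held 946, 392 and 841 WT cells and 2064, 1059 and 1937 KO cells; levels below are in CPM, the UMIs of a gene per 1000000 UMIs of its class. Nr3c1 stood at 26.8, 26.6 and 44.9 CPM in these classes of the WT library and at 6.09, 6.53 and 12.1 CPM in KO, a check of the transcript level only, since 3′ tags lie outside the deleted exon. The summed level of 8 germ cell markers was 11.3% (WT) and 16.4% (KO) of the germ-like level in pregranulosa-like cells, 9.41% and 11.4% in epithelia-like cells and 15.2% and 23.3% in stroma-like cells, so germ marker transcripts were counted in somatic barcodes. The KO value was the larger in all 3 classes but not in every finer cluster. In pregranulosa-like cells the summed markers of Sertoli cells were 20.7 and 21.7 CPM and of steroidogenic cells 64.9 and 55.3. Those of mesonephric tubules were 5.31 and 3.65, and of neural crest 7.73 and 8.47. The testis-determining gene Sry had 0 UMIs in these cells in both libraries. In epithelia-like cells pregranulosa markers summed to 1574 (WT) and 1570 (KO) CPM, epithelial markers to 1475 and 1345, and stroma markers to 663 and 690. Removal of cells with markers of another class left 24.7% and 20.8% of epithelia-like cells. In stroma-like cells neural crest markers summed to 162 and 150 CPM, with 3 of 4 markers at 0.

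The members were genes of the somatic cells. In germ-like cells their levels ran from 0.0498 CPM (Foxl2) to 6.75 CPM (Nr2f2) in WT and from 0.00822 to 5.60 CPM for the same genes in KO, at most 3.29% of the level in the highest class of each member. These germ-like values are set beside the somatic ones as a background. Whether free RNA, mixed barcodes or the germ cells themselves gave them was not tested. The order of the 3 main somatic classes was the same in both libraries for 9 of 10 members. The exception was Gata4, whose epithelia- and stroma-like intervals overlapped in each library.

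**Figure D1:**
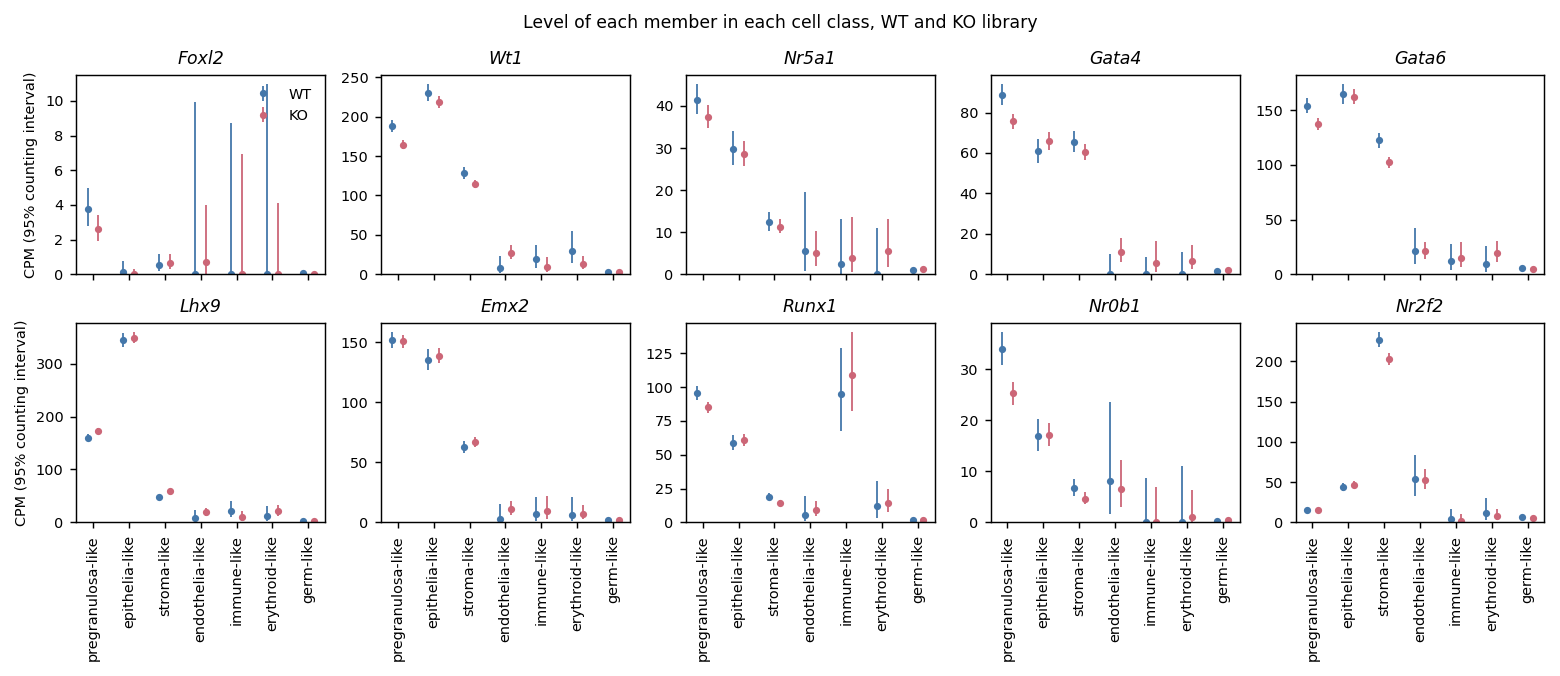
Level of each member (CPM, y axis from 0, each panel with its own scale) in 7 cell classes (x axis) of the WT (blue) and KO (red) libraries; points are class levels and bars 95% counting intervals. Wt1 and Lhx9 are highest in epithelia-like cells, Nr2f2 in stroma-like cells, and the Runx1 intervals of immune-like and pregranulosa-like cells overlap.

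Foxl2, the forkhead factor of granulosa cells, was captured in few cells, most of them pregranulosa-like. These held 48 UMIs in WT, or 3.75 CPM (2.76 to 4.97), and 51 in KO, or 2.59 CPM (1.93 to 3.40). Stroma-like cells held 5 and 10 UMIs, and epithelia-like cells 1 in WT and 0 in KO, where the limit taken for a count of 0, 3 UMIs, is 0.228 CPM. At full depth 4.55% of WT and 2.42% of KO pregranulosa-like cells had a Foxl2 UMI, against 0.0883% and 0.00980% of germ-like cells; with every cell thinned to 3000 UMIs the pregranulosa-like shares, from cells with medians of 12653.5 and 8506 UMIs before thinning, were 1.16% and 0.921%. With 99 UMIs over both libraries, Foxl2 was under the minimum of 100 for a comparison of KO with WT, and its ratio was -0.53 (-1.13 to 0.07) on the log2 scale.

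Wt1 and Lhx9 shared the order epithelia-like, pregranulosa-like, stroma-like. Wt1 stood at 230.4 CPM (219 to 242), 189 CPM (181 to 196) and 128 CPM (121 to 136) in these classes of the WT library. In KO the levels were 219, 164 and 115 CPM. The intervals of the 3 classes did not overlap in either library.

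Lhx9, a LIM homeodomain factor, stood at 345 CPM (332 to 359) in WT and 349.7 CPM (339.7 to 360.0) in KO epithelia-like cells. Pregranulosa-like cells had 160.3 and 173 CPM, and stroma-like cells 47.4 and 59.1 CPM. At 3000 UMIs per cell, 62.2% of WT and 64.0% of KO epithelia-like cells had an Lhx9 UMI, against 0.501% and 0.892% of germ-like cells.

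Emx2, Nr5a1 and Nr0b1 were highest in pregranulosa-like cells, then epithelia-like, then stroma-like. Emx2 had 152, 136 and 62.5 CPM in that order in WT and 151, 139 and 67.0 CPM in KO. Nr5a1, a regulator of steroid enzyme genes, had 41.5, 29.8 and 12.4 CPM in WT and 37.4, 28.6 and 11.3 CPM in KO. Nr0b1 had 33.9, 16.9 and 6.73 CPM in WT and 25.2, 17.1 and 4.65 CPM in KO. For each of the 3 genes the classes' intervals were apart in both libraries.

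Gata6 and Gata4 were spread more evenly. Gata6 had 154, 165 and 123 CPM in pregranulosa-, epithelia- and stroma-like cells of WT and 137, 163 and 103 CPM in KO, and its pregranulosa- and epithelia-like intervals overlapped in WT. Gata4 had 88.8, 60.8 and 65.6 CPM in WT and 75.6, 66.0 and 60.5 CPM in KO. From the highest to the lowest of these classes Gata6 differed by 1.34 times in WT and 1.58 times in KO, and Gata4 by 1.46 and 1.25 times, against 15.3 and 13.2 times for Nr2f2.

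Runx1 and Nr2f2 were also found in immune- and endothelia-like cells. Runx1, which is known for blood cell formation too, stood at 95.4 CPM (90.1 to 101) in WT and 85.1 CPM (81.1 to 89.3) in KO pregranulosa-like cells, at 58.9 and 60.6 CPM in epithelia-like and at 19.1 and 14.2 CPM in stroma-like cells. Immune-like cells, 31 in WT and 50 in KO, had 94.7 CPM (67.6 to 129) and 109 CPM (82.6 to 141), which overlapped the pregranulosa-like intervals; germ markers stood at 1.76% and 17.2% of the germ-like level there. Nr2f2 ran the other way, with 227 CPM (217 to 236) and 203 CPM (196 to 209.9) in stroma-like cells, 43.9 and 46.9 CPM in epithelia-like cells and 14.8 and 15.4 CPM in pregranulosa-like cells. Endothelia-like cells had 53.9 CPM (32.9 to 83.3) and 52.4 CPM (41.1 to 65.9) of Nr2f2 from 30 and 136 cells. A perivascular-like cluster of a finer partition had 149.6 and 139 CPM from 24 and 64 cells. Summed erythroid markers were 31486.5 CPM (WT) and 69.4 CPM (KO) in immune-like cells, and 30364 and 1583 CPM in endothelia-like cells.

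Between classes of a library, genes with at least 100 UMIs over both classes were called at a log2 ratio of at least 1 with an interval that left out 0; since clustering made the classes, this is a description. For pregranulosa-like over stroma-like cells, genes tested passed at shares of 11.0% higher and 9.46% lower in WT, and 10.7% higher and 9.58% lower in KO. Of the 9 members tested 5 were higher (Nr5a1, Lhx9, Emx2, Runx1 and Nr0b1) and 1 lower (Nr2f2) in each library. Nr2f2 had log2 ratios of -3.93 (-4.15 to -3.72) in WT and -3.72 (-3.90 to -3.55) in KO, Nr0b1 2.33 (1.96 to 2.73) and 2.44 (2.08 to 2.81), and Runx1 2.32 (2.10 to 2.55) and 2.58 (2.38 to 2.79). The member median was 1.28 in WT and 1.17 in KO, against 0.04 and -0.03 over all genes tested.

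For epithelia-like over stroma-like cells, genes passed at shares of 6.37% higher and 8.03% lower in WT, and 7.26% higher and 8.24% lower in KO, and the same 5 members were higher and Nr2f2 lower in each library, with Lhx9 at 2.86 (2.72 to 3.01) and 2.56 (2.46 to 2.67). These 6 calls fell to as few as 3 in WT and 4 in KO, without cells that carried markers of another class. Wt1 came near the limit, at 0.84 and 0.93, and reached 1.05 in KO with the median gene set to 0. For pregranulosa-like over epithelia-like cells, genes passed at shares of 7.86% higher and 6.15% lower in WT, and 6.98% higher and 6.51% lower in KO. There Lhx9 (-1.11 in WT, -1.02 in KO) and Nr2f2 (-1.57 and -1.61) were lower in pregranulosa-like cells, and Nr0b1 passed in WT at 1.00 (0.71 to 1.31) and had 0.56 (0.33 to 0.80) in KO. The WT call of Nr0b1 lay at the limit and was lost with equal limits on cells, with the members kept for clustering, under 2 other scalings and with thinning. Without cells that carried markers of another class, 1 member was called lower in each library. In KO, 1 was also called lower without doublets and with the germ-like profile subtracted. Over all genes tested the median ratio was 0.16 in WT and 0.13 in KO, so ratios stand relative to medians above 0.

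A finer partition of all cells gave 2 pregranulosa-like clusters, one with high and one with low Lgr5, a receptor of R-spondins known from the ovarian surface and from pregranulosa cells that derive from it. Lgr5 stood at 117 CPM in WT and 108 CPM in KO in the Lgr5-higher cluster, of 718 and 1707 cells, and at 9.41 and 11.2 CPM in the Lgr5-lower cluster, of 225 and 342 cells. Lhx9 followed Lgr5, with 191 CPM (182 to 199) in WT and 195 CPM (188 to 201) in KO in the first cluster and 23.1 CPM (17.6 to 29.8) and 23.8 CPM (18.4 to 30.2) in the second. At 3000 UMIs per cell, 41.4% and 40.1% of Lgr5-higher cells had an Lhx9 UMI, against 6.67% and 6.14% of Lgr5-lower cells.

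The log2 ratio of Lhx9 between these clusters was 3.04 (2.67 to 3.44) in WT and 3.03 (2.68 to 3.41) in KO. It was the 1 of 9 members tested that passed a ratio of 1 in each library, where genes passed at shares of 3.35% higher and 3.39% lower in WT, and 4.25% higher and 3.23% lower in KO. Nr5a1 was on the same side, at 0.76 (0.39 to 1.15) and 0.65 (0.29 to 1.03). Emx2 had -0.42 (-0.57 to -0.27) and -0.28 (-0.42 to -0.14), and Nr2f2 -0.95 (-1.40 to -0.49) and -0.87 (-1.27 to -0.46), on the side of the Lgr5-lower cells. The median over all genes tested was -0.14 and -0.16.

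Foxl2 lay on the side opposite to Lhx9. It had 23 UMIs in the Lgr5-higher and 25 in the smaller Lgr5-lower cluster of WT, or 2.24 CPM (1.42 to 3.37) and 9.80 CPM (6.34 to 14.5). In KO it had 34 and 17 UMIs, or 2.03 CPM (1.40 to 2.83) and 6.12 CPM (3.57 to 9.80), so the clusters' intervals were apart in both libraries. Germ marker levels were 10.7% (WT) and 15.2% (KO) of the germ-like level in Lgr5-higher cells and 15.4% and 24.2% in Lgr5-lower cells, and their part in these values was not tested.

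**Figure D2:**
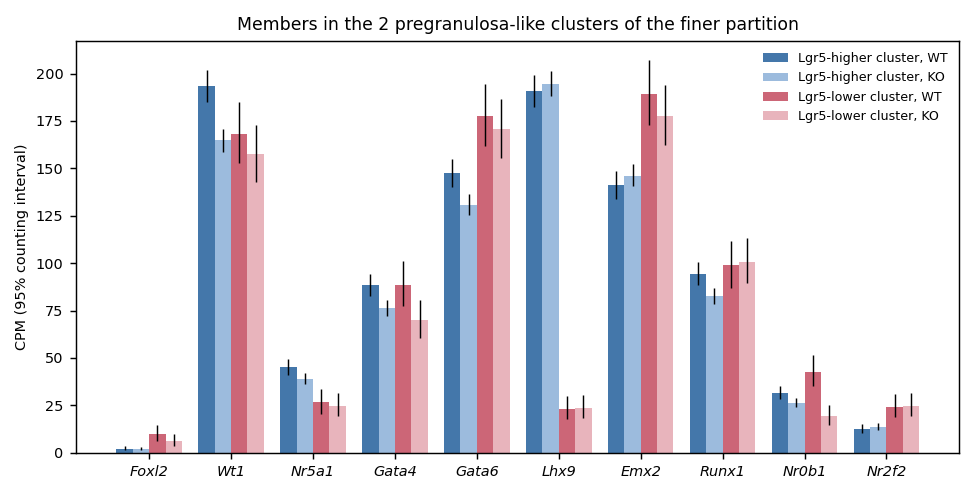
Level of each member (CPM, y axis from 0) in the Lgr5-higher (blue) and Lgr5-lower (red) pregranulosa-like clusters, WT dark and KO pale; bars are levels and lines 95% counting intervals. Lhx9 stands at 191 CPM in the Lgr5-higher and 23.1 CPM in the Lgr5-lower cluster of WT, and the WT and KO bars of Nr0b1 stand apart in the Lgr5-lower cluster.

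The comparison of KO with WT asked whether the members stood at other levels without GR. Genes were called at a log2 ratio of KO over WT of at least 0.5 in size, with an interval that left out 0. In pregranulosa-like cells 5.23% of 11133 genes tested passed (337 higher, 245 lower in KO), and 0 of 9 members. In epithelia-like cells 3.32% of 9963 genes passed (197 higher and 134 lower, or 158 and 166 with the median gene set to 0), and 0 of 9 members. In stroma-like cells 6.46% of 10691 genes passed (498 higher, 193 lower), and 1 of 9 members, Nr0b1. The balance of higher and lower genes turned with the choice of cells. Without doublets it was 120 higher and 211 lower in pregranulosa-, 137 higher and 123 lower in epithelia- and 198 higher and 146 lower in stroma-like cells, and without cells that carried markers of another class 119 higher and 211 lower, 71 higher and 123 lower and 115 higher and 132 lower. With the germ-like profile subtracted it was 168 higher and 272 lower, 224 higher and 140 lower and 274 higher and 190 lower. By the size limit of the study, 0.25 in ln(counts per 10000 + 1), 0.243%, 0.211% and 0.374% of genes passed in the 3 classes, and no member.

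**Figure D3:**
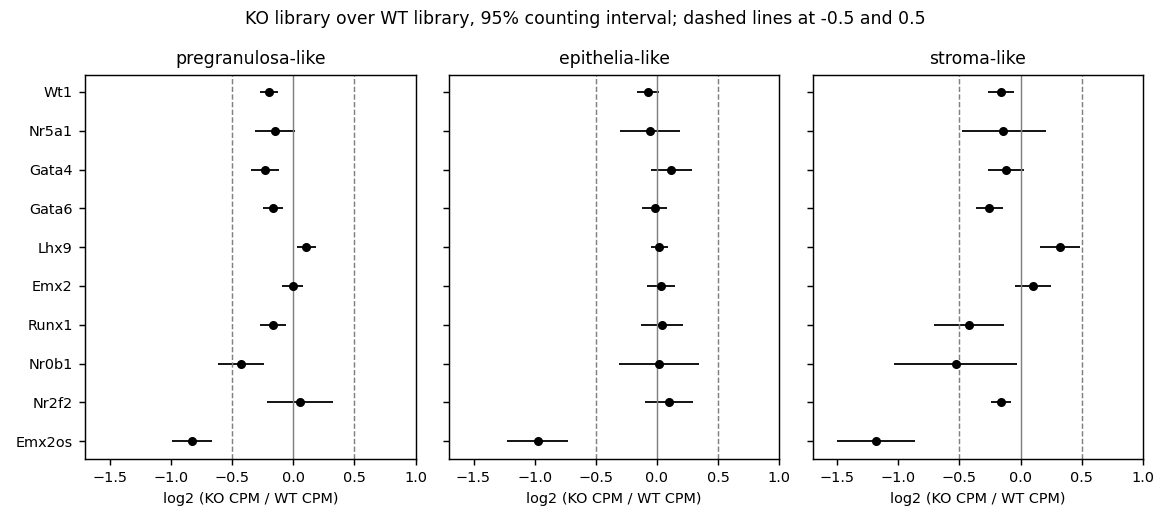
log2 ratio of KO over WT level (x axis) of 9 members and the antisense gene Emx2os (y axis) in 3 somatic classes; points are ratios, bars 95% counting intervals and dashed lines the size limit of 0.5. The members lie between -0.53 and 0.32, and Emx2os lies lower in each class, at -0.83, -0.98 and -1.18.

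In pregranulosa-like cells the differences were small and mostly towards lower levels in KO. The ratio was -0.43 (-0.61 to -0.24) for Nr0b1, -0.23 (-0.34 to -0.12) for Gata4, -0.20 (-0.28 to -0.12) for Wt1, -0.17 (-0.25 to -0.08) for Gata6 and -0.16 (-0.27 to -0.06) for Runx1, each with an interval below 0 and a ratio within the size limit. Lhx9 had 0.11 (0.03 to 0.19) and was the 1 member with an interval above 0. Nr5a1 had -0.15 (-0.32 to 0.01), Nr2f2 0.05 (-0.21 to 0.32) and Emx2 -0.01 (-0.09 to 0.08); the signs of Emx2 and Nr2f2 changed under other settings. The median of the members was -0.16, against -0.02 over all genes tested. The share of all genes with an interval below 0 is not given here. Over 9 other settings Gata4 ran from -0.31 to -0.15, Wt1 from -0.28 to -0.03, Gata6 from -0.26 to -0.08 and Runx1 from -0.29 to -0.04. Without doublets these 4 genes had -0.15, -0.18, -0.10 and -0.12 in the Lgr5-higher cluster. In the Lgr5-lower cluster they had -0.18, 0.00, 0.05 and 0.18, and each interval there included 0.

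In stroma-like cells Nr0b1 had 66 UMIs in WT and 73 in KO from more cells, a ratio of -0.53 (-1.03 to -0.03). The call was lost with equal limits on cells in both libraries, -0.51 (-1.04 to 0.02), and with doublets removed, -0.44 (-1.01 to 0.12). Runx1 had -0.42 (-0.71 to -0.14), Gata6 -0.26 (-0.36 to -0.15), Wt1 -0.16 (-0.27 to -0.06) and Nr2f2 -0.16 (-0.24 to -0.08), and Lhx9 0.32 (0.16 to 0.48), each ratio within the size limit. The median of the members was -0.16, against 0.01 over all genes tested. Lhx9 passed the size limit with cells thinned to 3000 UMIs before summing, at 0.54 (0.24 to 0.85), the 1 alternative in which it did. Of the 3 classes, germ markers differed most between the libraries in this one, and with the germ-like profile subtracted in proportion the ratio was -0.02 (-0.12 to 0.09) for Wt1, -0.02 (-0.10 to 0.06) for Nr2f2 and 0.46 (0.29 to 0.62) for Lhx9.

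The finer partition gave 2 stroma-like clusters, named here by the proliferation gene Mki67, and the members differed between the libraries in unlike ways within them. The Mki67-lower cluster held 641 WT and 1325 KO cells, with germ markers at 11.6% and 4.25% of the germ-like level. There Lhx9 stood at 44.1 CPM (39.3 to 49.4) in WT and 74.6 CPM (68.8 to 80.7) in KO, a ratio of 0.76 (0.56 to 0.96). It passed the size limit as 6.28% of 9285 genes tested did, 144 of them higher and 439 lower in KO. Emx2 had 0.41 (0.23 to 0.58), while Wt1 had 0.05 (-0.08 to 0.18), Gata6 -0.03 (-0.16 to 0.09), Nr2f2 0.01 (-0.09 to 0.11) and Runx1 -0.15 (-0.48 to 0.18). Without doublets Lhx9 had 0.64 (0.43 to 0.86) and Emx2 0.32 (0.14 to 0.50). Runx1 then had -0.39 (-0.76 to -0.03), an interval that left out 0, while those of Wt1, Gata6 and Nr2f2 still included it.

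The Mki67-higher cluster held 176 WT and 552 KO cells, with germ markers at 24.8% and 47.2%, and 30 and 219 of its cells were marked as doublets. There 22.6% of genes tested passed, 1118 higher and 739 lower in KO. Lhx9 had -0.41 (-0.69 to -0.12), Wt1 -0.42 (-0.61 to -0.22), Gata6 -0.44 (-0.66 to -0.22), Nr2f2 -0.41 (-0.55 to -0.27), Emx2 -0.37 (-0.64 to -0.10) and Gata4 -0.37 (-0.66 to -0.08). Without doublets Lhx9 had -0.12 (-0.44 to 0.21), Wt1 -0.14 (-0.36 to 0.09), Gata6 -0.33 (-0.58 to -0.08) and Nr2f2 -0.16 (-0.32 to 0.00), of which the interval of Gata6 left out 0. The intervals of the stroma-like clusters were apart for Lhx9, Wt1, Gata6, Nr2f2, Emx2 and Gata4 with all cells. Of these members, they were apart for Lhx9 alone without doublets. The part of germ cell transcripts and of depth in these values was not tested.

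In epithelia-like cells the interval of every member tested included 0. The 9 ratios ran from -0.07 (-0.16 to 0.01) for Wt1 to 0.12 (-0.05 to 0.29) for Gata4, with a median of 0.02 against 0.03 over all genes tested. With cells that carried markers of another class removed, which left 97 of 392 WT cells, Nr5a1 had 0.70 (0.11 to 1.31).

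Nr0b1 differed more within the Lgr5-lower pregranulosa-like cluster, which was looked at after the main classes. It had 109 UMIs in WT, or 42.7 CPM (35.1 to 51.5), and 54 in KO, or 19.4 CPM (14.6 to 25.4), a ratio of -1.14 (-1.63 to -0.65). In the Lgr5-higher cluster it had 31.7 CPM (28.4 to 35.3) in WT and 26.3 CPM (23.9 to 28.9) in KO, a ratio of -0.27 (-0.48 to -0.06), and the intervals of the 2 ratios did not overlap. Over all genes tested, 7.65% of 6553 passed 0.5 in the Lgr5-lower cluster (304 higher, 197 lower in KO). In the Lgr5-higher one 4.59% of 10683 passed (299 higher, 191 lower). The other members with 100 UMIs ran from -0.34 (-0.63 to -0.06) (Gata4) to 0.04 (-0.49 to 0.57) (Lhx9) in the Lgr5-lower cluster. Without doublets Nr0b1 had -1.01 (-1.54 to -0.50) in the Lgr5-lower and -0.19 (-0.41 to 0.03) in the Lgr5-higher cluster.

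Antisense neighbours of the members were read beside them. Emx2os lies at chr19:59425104-59458635 on the minus strand of GRCm38 (GENCODE), head to head with Emx2 (chr19:59458372-59465357), and the genes share 264 bases at their starts. In WT it had 659, 286 and 203 UMIs in pregranulosa-, epithelia- and stroma-like cells, or 51.4, 39.3 and 20.7 CPM, the same order of classes as Emx2. In KO it had 571, 263 and 143 UMIs, or 29.0, 19.97 and 9.11 CPM. The KO library was lower in each class, with log2 ratios of -0.83 (-0.99 to -0.66), -0.98 (-1.22 to -0.73) and -1.18 (-1.50 to -0.87), and 24 of 9419 genes tested in all 3 classes were lower past the size limit in all 3.

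Emx2 itself had ratios of -0.01 (-0.09 to 0.08), 0.03 (-0.08 to 0.15) and 0.10 (-0.04 to 0.25) in the same classes. Wt1os, which starts 18 bases from Wt1 on the other strand, had 27.8, 37.2 and 24.2 CPM in WT and 29.7, 37.9 and 22.6 CPM in KO, with each interval of the ratio including 0. Nr5a1os had at most 13 UMIs in a somatic class of a library. The antisense genes of Foxl2 and Nr2f2 were not analysed here. Whether reads were counted by strand is not given in the sources used here, so overlapping stretches may be shared between partners.

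Co-detection was read with each cell thinned to 3000 UMIs, so that depth was equal. Wt1 was then found in 39.6% (36.5 to 42.8) of WT and 39.8% (37.7 to 42.0) of KO pregranulosa-like cells, against 0.928% and 1.00% of germ-like cells. Cells with 3 or more of the 10 members made up 38.3% (35.2 to 41.4) of WT and 35.8% (33.7 to 37.9) of KO pregranulosa-like cells, 43.9% (38.9 to 48.9) and 48.7% (45.7 to 51.8) of epithelia-like cells, and 22.9% (20.1 to 25.9) and 22.0% (20.2 to 23.9) of stroma-like cells. In germ-like cells the shares were 0.147% (0.0706 to 0.271) and 0.118% (0.0608 to 0.205). Several members were thus often captured in the same somatic cell, at a shallow and equal depth.

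Within a class, a UMI of one member went, at the median over pairs, with little change in the share of cells with another. The 36 pairs of members other than Foxl2 were taken both ways round, and a pair was counted where the intervals with and without the first member were apart both ways. The count was 0 in pregranulosa- and epithelia-like cells of both libraries and in WT stroma-like cells, and 2 in KO stroma-like cells. There, 36.3% (31.2 to 41.8) of cells with Emx2 and 28.1% (25.9 to 30.4) of cells without it had Wt1, and 34.2% (29.1 to 39.6) and 24.4% (22.3 to 26.6) had Gata6. In WT stroma-like cells the same shares were 39.2% (30.8 to 48.2) and 32.2% (28.8 to 35.8) for Wt1, and 36.9% (28.6 to 45.8) and 30.5% (27.2 to 34.1) for Gata6, with intervals that overlapped. The median ratio of the shares with and without the first member was 1.02 to 1.11 over the classes and libraries. Single pairs ran from 0 in stroma-like cells of both libraries to 4.85 in WT epithelia-like cells. Rarely captured members, such as Nr0b1 in 1.43% of WT stroma-like cells, give wide intervals. A count of 0 therefore cannot tell whether such pairs were linked. Without thinning, 3 to 9 pairs were counted, but depth then differed between cells.

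**Figure D4:**
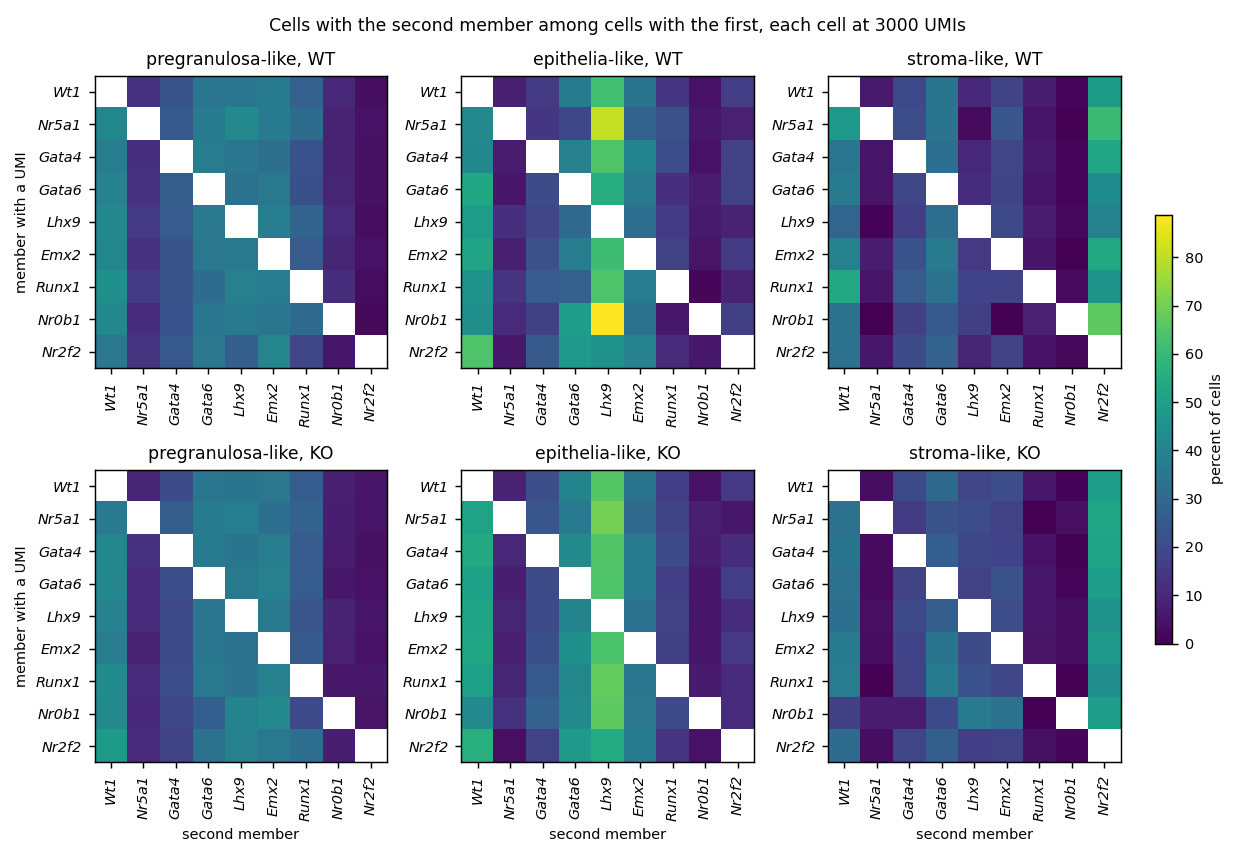
Percent of cells (colour) with a UMI of a second member (columns) among cells with a UMI of a first member (rows), each cell at 3000 UMIs, in 3 classes of WT (top) and KO (bottom); Foxl2 is left out. Colour follows the column and the class more than the row, with Lhx9 bright in epithelia-like and Nr2f2 in stroma-like cells; rows of rarely captured members such as Nr0b1 rest on few cells.

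Cells with Foxl2 were compared without thinning, since few had a UMI. Of 43 WT pregranulosa-like cells with Foxl2, 51.2% (35.5 to 66.7) also had Lhx9, against 67.1% (63.9 to 70.2) of the cells without it. Of 50 KO cells with Foxl2, 44.0% (29.99 to 58.7) had Lhx9, against 65.0% (62.9 to 67.1). The intervals overlapped in WT and were apart in KO. Wt1 was found in 83.7% (69.3 to 93.2) of the WT and 74.0% (59.7 to 85.4) of the KO cells with Foxl2, against 84.8% (82.3 to 87.1) and 75.0% (73.0 to 76.9) without. Depth differs between cells here, so these shares are not free of it.

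Genes whose pattern was most like that of each member were sought over 11 sums, each a class of 1 library with at least 50 cells, by Pearson's r of log2(CPM + 1) among genes with at least 500 UMIs. The sums share libraries and the split of germ from somatic cells, so r is a description only. The nearest were Gm30382 (0.98) and Oprk1 (0.96) for Foxl2, Vav2 (0.99) and Rin2 (0.98) for Runx1, Smpd5 (0.98) and Wbp1 (0.98) for Nr0b1 and Dcaf12l1 (1.00) and Tst (1.00) for Nr5a1. They were Col12a1 (0.99) and Hoxc8 (0.99) for Wt1, Rasl11a (0.98) and Nrn1 (0.98) for Lhx9 and Echdc2 (1.00) and Ldhb (0.99) for Emx2. They were Sulf1 (0.99) and Cacna1h (0.99) for Gata4, Pcdh18 (0.99) and Sulf1 (0.99) for Gata6 and Camk2n1 (0.98) and Tril (0.98) for Nr2f2. Among the members themselves, Wt1 and Gata6 were nearest each other, at 0.99.

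Genes that work with the members were read as 4 lists, between KO and WT by the same limits. Over all genes tested, 5.23%, 3.32% and 6.46% passed in pregranulosa-, epithelia- and stroma-like cells. The lists were not read under other settings. Of 20 cofactors and other gonadal transcription factors, 12, 13 and 15 could be tested in pregranulosa-, epithelia- and stroma-like cells, with medians of -0.03, -0.14 and -0.13. In stroma-like cells Osr2, an odd-skipped zinc finger factor, was lower in KO, at -0.54 (-0.95 to -0.12). In epithelia-like cells 0 passed, and the genes with most UMIs, Hes1 and Sox4, had -0.14 (-0.19 to -0.09) and 0.11 (0.04 to 0.17).

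Of 14 ovary-side genes, 12, 12 and 10 could be tested, with medians of -0.04, 0.08 and -0.06. In pregranulosa-like cells 0 passed: Kitl, the ligand of the germ cell receptor Kit, had -0.01 (-0.05 to 0.03) and Fst, which binds activin, 0.03 (-0.02 to 0.07). In epithelia-like cells 0 passed as well, with Kitl at 0.35 (0.27 to 0.43) and Amhr2 at 0.02 (-0.07 to 0.12). In stroma-like cells Bmp2, 0.60 (0.07 to 1.14), and Lgr5, 0.64 (0.05 to 1.25), were higher in KO, from 4.38 and 3.57 CPM in WT. These WT levels rest on 43 and 35 UMIs. Both genes are among the pregranulosa markers and stood at 80.5 and 96.1 CPM in WT pregranulosa-like cells. The part of mixed barcodes in the stroma-like values was not tested.

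Of 10 testis-side genes, 5, 4 and 1 could be tested, and 1 passed, Ptgds, a prostaglandin D synthase gene, in pregranulosa-like cells at 0.51 (0.14 to 0.90). In epithelia-like cells Nr0b2 had 0.14 (-0.20 to 0.48) and Fgf9 -0.27 (-0.59 to 0.07), and in stroma-like cells Fgf9 had 0.30 (-0.29 to 0.91). Sox9 stood at 13.2 CPM in WT and 10.7 CPM in KO pregranulosa-like cells, where Amh had 4 and 7 UMIs and Dmrt1 4 and 11. Of 6 steroidogenic genes, 4, 2 and 1 could be tested, and Star, whose product brings cholesterol into mitochondria, was lower in KO pregranulosa-like cells, at 3.35 CPM against 6.40 in WT, -0.93 (-1.42 to -0.45). In epithelia-like cells Star had 0.23 (-0.12 to 0.59) and Scarb1 -0.14 (-0.48 to 0.21), and in stroma-like cells Scarb1 had -0.04 (-0.45 to 0.37).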

How the data were processed

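The deposited values were raw UMI counts per gene and barcode from 10x 3′ libraries, made by the authors with Cell Ranger (3.0.2 in the matrix header) on mm10 per the submitters' processing notes, which also name Seurat 3.2.3. 168483330 (WT) and 186117981 (KO) UMIs lay in 11430 and 17829 barcodes. The study's limits per cell were applied here, 1500 to 6500 genes and 5500 to 40000 UMIs in WT, 1200 to 5500 genes and 3000 to 30000 UMIs in KO, and under 10% mitochondrial UMIs, which kept a single cell more than the study states. Counts were normalized per cell, reduced to 2000 variable genes without the members, and clustered (30 components, 20 neighbours, Leiden resolution 0.5, or 1.0 for the finer partition) with scanpy 1.11.5, leidenalg 0.10.2, numpy 2.4.6 and scipy 1.17.1; figures used matplotlib 3.10.9. Clusters were named from the fixed markers. Scrublet marked 262 WT and 1023 KO cells as doublets, and these were kept except in an alternative.

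UMIs were summed per class. Levels carry exact Poisson, log2 ratios exact conditional binomial and shares exact Clopper-Pearson intervals. The counting code was tested on simulated counts. Positions are from GENCODE M21, which held 27645 of the 27998 gene IDs. All 10 members were named, with the 2 genes most like each and, from each fixed list, the genes past the limit or else the 2 with most UMIs. Results of some genes on the list of cofactors and other gonadal transcription factors are not reported here. The members and lists were chosen with earlier results of these data known. Alternatives changed the limits on cells, doublets, clustering, cells with other markers, scaling, thinning, the UMI minimum and the size limit, and those chosen after seeing the data were the subtraction of the germ-like profile and the removal of doublets from finer clusters.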

Additional observations from a re-analysis of the deposited data

How the results depend on the processing

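Counts of genes past the size limit between KO and WT, 582, 331 and 691 in pregranulosa-, epithelia- and stroma-like cells, moved with the choice of cells and limits. They were 1200, 881 and 1706 with equal limits on cells, 971, 668 and 1118 at a minimum of 1 UMI, 88, 26 and 105 at a minimum of 1000 UMIs, 81, 30 and 75 at a log2 limit of 1, 321, 215 and 352 with thinning before summing and 330, 194 and 247 without cells with markers of another class. Removal of doublets gave 331 in pregranulosa- and 344 in stroma-like cells. By the limit in ln(counts per 10000 + 1), equal limits on cells gave 101, 66 and 183, and in stroma-like cells the count was 19 without doublets, 14 without cells with other markers, 18 with thinning and 13 with the germ-like profile subtracted, an alternative chosen after seeing the data. Thinning also lowered the genes past 1 between classes to 1125 (pregranulosa over stroma), 546 (epithelia over stroma) and 599 (pregranulosa over epithelia) in WT, and to 1042 (epithelia over stroma) and 983 (pregranulosa over epithelia) in KO.

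The members called in stroma-like cells, 1 (Nr0b1), became 0 with equal limits on cells, without doublets, without cells with other markers, at a minimum of 1000 UMIs, at a log2 limit of 1 and with the germ-like profile subtracted. Nr0b1 had too few UMIs to be compared without cells with other markers, at the minimum of 1000 and with thinning, where the 1 member called was Lhx9. Removal of cells with other markers raised the members called in epithelia-like cells from 0 to 1 (Nr5a1) and lowered those between epithelia- and stroma-like cells from 6 to 3 in WT and to 4 in KO, where they were 5 without doublets, with thinning and with the germ-like profile subtracted and 7 with the median gene set to 0. They were 4 in WT with thinning. Between pregranulosa- and epithelia-like cells of WT the 3 members called became 2, without Nr0b1, in 5 alternatives. Without cells with other markers they stayed 3, but were 2 higher and 1 lower in place of 1 higher and 2 lower. Between pregranulosa- and epithelia-like cells of KO the members called fell from 2 to 1 without doublets, without cells with other markers and with the germ-like profile subtracted. Over 9 alternatives, Emx2os kept its sign in each class (-0.94 to -0.74, -1.11 to -0.61 and -1.40 to -0.76), as did Nr0b1 in pregranulosa-like cells (-0.47 to -0.34) and Lhx9 in stroma-like cells (0.22 to 0.54, highest with thinning), while Emx2 in pregranulosa-like cells kept it in 2 (-0.15 to 0.08). No called ratio of a member turned its direction, but the balance of genes called higher and lower did (given above).

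The share of cells with 3 or more members depended on depth: in pregranulosa-, epithelia- and stroma-like cells it was 73.5, 79.1 and 52.3% in WT and 69.8, 77.3 and 47.6% in KO at 5500 UMIs per cell, and 96.8, 99.0 and 78.7% in WT and 90.2, 97.3 and 61.1% in KO without thinning. Smaller moves were 42.1% for WT pregranulosa-like cells with equal limits, 38.4% for KO pregranulosa-like cells without doublets, and, without cells with other markers, 36.1% (WT epithelia-like), 39.3% (KO pregranulosa-like) and 24.5% (KO stroma-like); the cause was not tested. The limits of depth bear most on Foxl2 and on Nr0b1 in stroma-like cells. No paired analysis was possible because each genotype was 1 library.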
